A study of Mus musculus with 3 samples.

Results

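The genes described here are 47 genes of DNA replication, chosen by symbol: 7 MCM genes, 14 genes of origins and helicase activation, 8 of polymerases and primase, 11 of the sliding clamp and its partners, 4 of nucleotide synthesis and 3 of chromatin assembly and maintenance. All 47 were on the array, among 19909 genes with a symbol, and were covered by 73 probes, 29 genes by 1 probe and 18 by 2 to 4 probes. Each of 3 two-colour arrays set RNA of brain cortex at E15.5 (embryonic day) of Snf2l-Ex6DEL mice, in which exon 6 of Snf2l is deleted, against cortex RNA of wild-type mice of the same age, both on the 129Sv background. The gene, now named Smarca1, encodes an ISWI chromatin remodelling ATPase. Replicates 1 and 2 are a dye exchange of 1 pair of RNAs, the mutant being in Cy5 on replicate 1 and in Cy3 on replicate 2. Replicate 3 took the other pair of RNAs, the mutant again in Cy5, so that n = 2 biological pairs. The sources used here do not give litters, pooling or embryo sex. The values are log2 ratios, read as mutant over wild type. That direction is likely but not stated: on each array the labels list wild type as channel 1 and the mutant as channel 2, and the design text speaks of the mutant versus controls.

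DNA is copied once per cell cycle. In G1, the origin recognition complex (ORC), Cdc6 and Cdt1 load the MCM helicase on origins, and geminin blocks further loading by holding Cdt1. In S phase the kinase of Cdc7 and Dbf4 helps to activate the helicase with Cdc45 and GINS, after which primase, the replicative polymerases, the clamp PCNA, its loader RFC and the single-strand binding protein RPA copy both strands. In the cortex at this age progenitors still divide while the neurons they produce have left the cycle. Many of these transcripts, though not all, are therefore known to mark the dividing cells. In bulk tissue, fewer dividing cells and less RNA per dividing cell cannot be told apart.

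Genes of this pathway are known targets of E2F factors, and the promoters of 3 MCM and polymerase genes are shown as examples of windows that hold the letters. In RefSeq windows of assembly GRCm38.p6, 40 of the 47 genes had a promoter, in 50 windows of 250 bases before to 50 after a start. The letters TTTCCCGC, TTTGGCGC, TTTGCCGC or TTTCGCGC, on either strand, stood in the windows of 14 of the 40 genes (35%), against 2.6% of 27025 genes. Per window the shares were 28% of 50 and 2.26% of 32851. The letters CCAAT, on either strand, stood in 54% of the 50 windows and in 37.4% of all, and GGGCGG in 74% and 35.7%. In 1 of the 50 windows an E2F match overlapped another of these motifs. The 250 bases before the start are given, 5′ to 3′ on the strand of the gene, with the E2F letters in capitals. For Mcm7, which has 2 windows, the one with the letters is given.
Mcm7, chr5:138171884-138172133, minus strand: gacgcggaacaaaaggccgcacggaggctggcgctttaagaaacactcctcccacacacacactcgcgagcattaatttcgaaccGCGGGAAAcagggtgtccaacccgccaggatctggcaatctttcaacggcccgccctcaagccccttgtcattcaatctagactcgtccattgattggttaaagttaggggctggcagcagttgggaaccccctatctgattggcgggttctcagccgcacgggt
Mcm6, chr1:128359706-128359955, minus strand: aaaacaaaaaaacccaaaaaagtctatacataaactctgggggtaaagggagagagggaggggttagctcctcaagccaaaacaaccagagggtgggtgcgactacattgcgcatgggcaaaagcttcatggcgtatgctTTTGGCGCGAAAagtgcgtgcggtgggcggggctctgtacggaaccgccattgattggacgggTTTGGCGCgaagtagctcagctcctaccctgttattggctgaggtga
Pola1, chrX:93632156-93632405, minus strand: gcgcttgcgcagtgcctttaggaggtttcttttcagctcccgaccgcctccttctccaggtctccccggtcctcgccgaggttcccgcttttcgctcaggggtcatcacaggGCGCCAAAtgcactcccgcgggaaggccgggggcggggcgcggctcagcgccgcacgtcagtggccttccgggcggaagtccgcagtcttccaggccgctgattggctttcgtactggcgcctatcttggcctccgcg
The 14 genes with the E2F letters had a median log2 ratio of -0.084 over the pairs, and the 26 genes without them -0.036. Mcm7, Mcm6 and Pola1 had means over the pairs of 0.28 ± 0.22, -0.031 ± 0.25 and -0.55 ± 0.46 (moderated SE over n = 2 pairs), and the 95% interval of each included 0. A match describes the sequence and not a bound site.

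As a group the replication genes lay near 0. Their median log2 ratio was -0.010 on replicate 1, 0.090 on replicate 2 and -0.14 on replicate 3, against 0.009, 0 and 0.001 over all genes with a symbol. Without the genes at the most frequent value the median on replicate 2 was 0.20. Over all genes with a symbol, the medians without such genes were -0.053, -0.011 and -0.036 on replicates 1 to 3. Over the pairs the median was -0.032, against -0.041 over all genes with a symbol. Among the replication genes 18 means were above 0 and 29 below. The share of means below 0 over all features was not computed. Of the 47 means, 42 (89.4%) were under 1.5-fold in either direction, as were 67.8% of all 28332 features. In limma's moderated test 0 of the 47 passed at an adjusted p of 0.05, where 0% of all features did. At an unadjusted p of 0.05 there were also 0 of 47, against 2.52% of all features. Without replicate 2 there were 4 of 47 (8.51%, against 3.78% of all features), and 0 passed after adjustment. The 95% interval of a gene's mean reached 1.15 to either side at the median of the 47 genes, from 0.89 for Pole to 3.61 for Rfc3. Changes of about 2-fold were therefore within the error of most of these genes, and none of their intervals excluded 0.

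**Figure D1:**
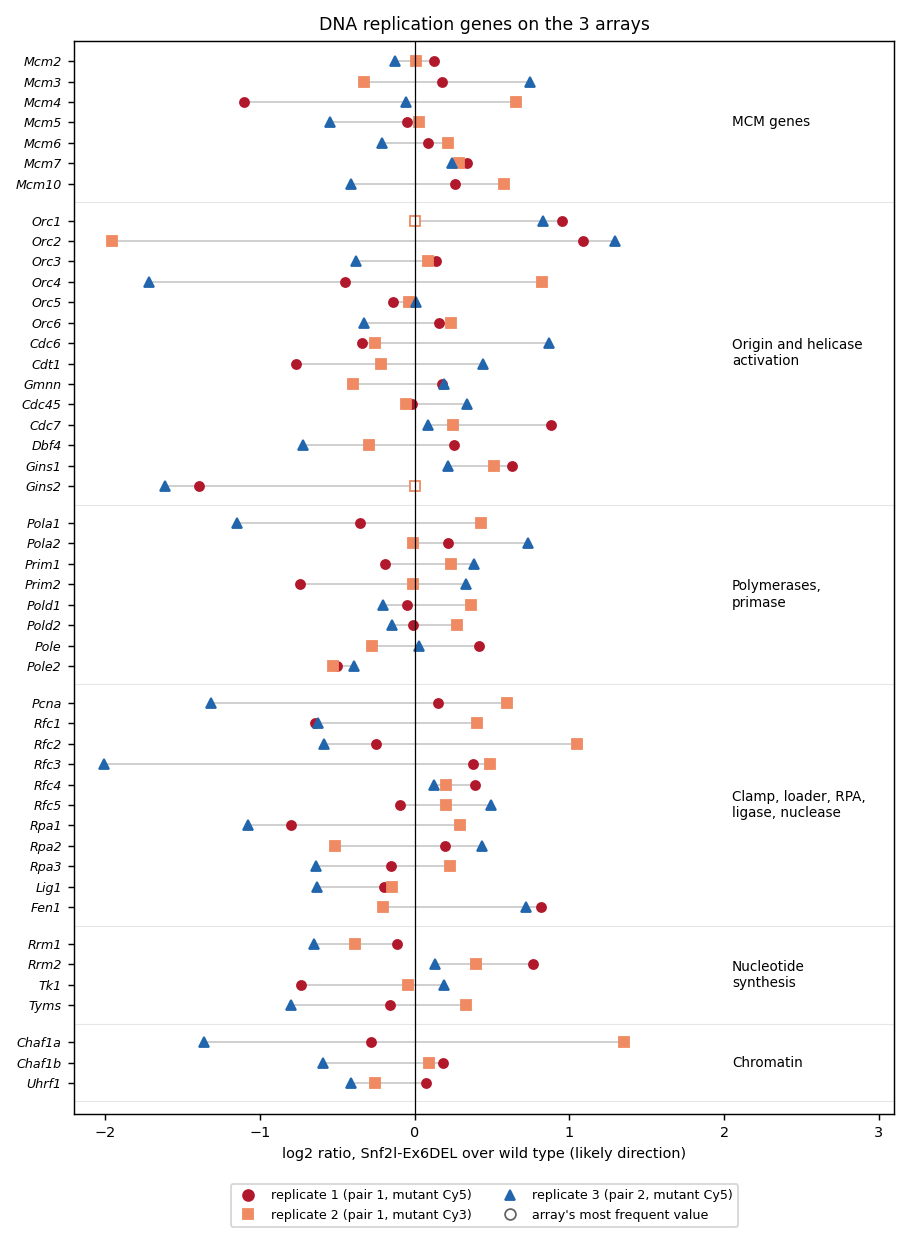
Log2 ratio (horizontal axis, likely mutant over wild type) of each of the 47 DNA replication genes on the 3 arrays, grouped by role. Symbols mark the array and open squares an array's most frequent value, which is no measurement. Mcm7 and Pole2 have the 3 arrays close together, while Orc2, Orc4, Rfc3 and Chaf1a span the widest ranges.

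Large ratios were not shared by the arrays of pair 1. On replicate 1, 13 of the 47 genes were at least 1.5-fold from 1 (27.7%, against 41% of all features), on replicate 2, 6 (12.8% against 42.8%), and on replicate 3, 20 (42.6% against 41.9%). On both replicates 1 and 2 in the same direction there were 0 of 47, where 14.7% of all features were. On all 3 arrays there were 0 of 47 as well, where 2.85% of all features were. On replicate 3, 14 of the 20 were below 0 (29.8% of the 47, against 22.3% of all features) and 6 above (12.8%, against 19.5%). The shares of the replication genes were thus under those of all features in pair 1 and near them in pair 2. These shares were set side by side without a test.

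Genes with 1 sign on all 3 arrays numbered 8 of the 45 that were measured on each (17.8%), against 27.6% of 18948 such features. Of these, 5 were higher in the mutant (11.1%, against 12.9%) and 3 lower (6.67%, against 14.7%). Both shares of the replication genes were under those of all features. Of the genes measured on both arrays, a sign was shared by 29 of 47 on replicates 1 and 3 (61.7%, against 52.3% of all features), by 22 of 45 on replicates 1 and 2 (48.9%, against 57.9%) and by 12 of 45 on replicates 2 and 3 (26.7%, against 44.5%). The 8 genes are described below within their groups. Their signs are those of the mean over a gene's probes. In Mcm7, Lig1, Rfc4 and Rrm2 the probes differed in sign on 1 array. They came from 5 of the 6 groups, with at most 2 from any group.

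Of the MCM genes, which encode the helicase subunits and the assembly factor Mcm10, Mcm7 was the one with a single sign. It read 0.34, 0.29 and 0.24 (log2 ratios of replicates 1 to 3), and its mean was 0.28 ± 0.22 (moderated SE over n = 2 pairs, adjusted p in limma = 0.852). The array values lay within 0.1 of each other, but its probes did not: 1 read 1.09, 0.24 and 0.39 and the other -0.41, 0.34 and 0.099. Mcm3 read 0.18 and -0.33 in pair 1 and 0.75 in pair 2. Mcm6 read 0.084, 0.22 and -0.21, over 3 probes that differed in sign on each array. On replicate 3 those probes read -1.045, -0.41 and 0.82. Mcm4 read -1.11, 0.65 and -0.057. The values of Mcm4 in pair 1 were thus far apart although both arrays measured the same RNAs. This came from 1 of its 2 probes, which read -1.943 and 1.845 in pair 1. On replicate 3 that probe was at the most frequent value. The other probe had 1 sign on all 3 arrays, at -0.268, -0.538 and -0.115. Mcm2, Mcm5 and Mcm10 ranged from -0.55, for Mcm5 on replicate 3, to 0.58, for Mcm10 on replicate 2. The MCM medians were 0.12, 0.22 and -0.13, and 5 of 7 genes were below 0 on replicate 3. Among all genes with a symbol measured on that array, 8671 of 16768 were below 0.

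Among genes of origins and activation, the widest ratios belonged to Orc2, Orc4, Orc1 and Gins2. Orc2, an ORC subunit, read 1.08 and -1.96 in pair 1 and 1.29 in pair 2. It was the 1 gene of the 47 past 1.5-fold on all 3 arrays with replicate 2 on the other side of 0, where 2.01% of all features were. Orc4, another subunit, read -0.45, 0.82 and -1.72. Orc1, the largest ORC subunit, read 0.95 on replicate 1 and 0.83 on replicate 3, with a mean of 0.65 ± 0.25 (moderated SE over n = 2 pairs, adjusted p in limma = 0.852). On replicate 2 it had that array's most frequent value, 0, which enters that mean, and with the value left out the mean was 0.89. Gins2, a GINS subunit, read -1.40 and -1.62 on replicates 1 and 3 and was likewise at 0 on replicate 2. Its mean of -1.16 ± 0.38 was the largest in size of the 47 genes (adjusted p in limma = 0.852). With the value of 0 left out, its mean was -1.51 (adjusted p in limma = 0.898).

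Gins1, Cdc7 and Dbf4 belong to helicase activation. Gins1 was above 0 on each array, at 0.63, 0.51 and 0.21, with a mean of 0.39 ± 0.25 (moderated SE over n = 2 pairs, adjusted p in limma = 0.852). It thus lay on the other side of 0 from Gins2, its partner in GINS. Cdc7, the catalytic subunit of the activating kinase, read 0.88, 0.25 and 0.088. Its second probe was at the most frequent value on replicates 2 and 3, and the first alone read 0.75, 0.49 and 0.17. Dbf4, the regulatory subunit of that kinase, read 0.25, -0.30 and -0.72. The subunits of the kinase thus did not share a direction in pair 2.

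By the mean of a gene's probes, the loading factors Cdc6 and Cdt1 were below 0 on both arrays of pair 1 and above 0 in pair 2. Cdc6 read -0.34 and -0.26 in pair 1 and 0.87 in pair 2. On replicate 2 its mean below 0 rests on 1 of its 3 probes, at -2.96, while the others read 0.737 and 1.44. Cdt1, with 1 probe, read -0.77 and -0.22 in pair 1 and 0.44 in pair 2. Gmnn, which encodes geminin, read 0.18, -0.40 and 0.19, so that the arrays of pair 1 lay on opposite sides of 0. Cdc45, Orc3, Orc5 and Orc6 lay between -0.38 and 0.34 on each array. Among them Orc3 read 0.14, 0.0835 and -0.38, with probes at -0.24 and 0.407 on replicate 2. Over the 14 genes of origins and activation the medians were 0.15, -0.019 and 0.14.

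Of the 8 polymerase and primase genes, Pola1, Pola2 and Prim2 were past 1.5-fold, each on 1 array. Pole2, the second subunit of polymerase epsilon, read -0.50, -0.53 and -0.40, the 3 arrays within 0.2 of each other. Its mean was -0.46 ± 0.22 (moderated SE over n = 2 pairs, adjusted p in limma = 0.852). Of the 8 genes of 1 sign it was the one whose array nearest to 0 lay farthest from it. Pole, the catalytic subunit of the same polymerase, read 0.42, -0.28 and 0.026. Pola1, the catalytic subunit of polymerase alpha, read -0.36, 0.43 and -1.15, and its partner Pola2 0.22, -0.010 and 0.73. These subunits of 1 enzyme thus lay on opposite sides of 0 on each array. Prim2, the large subunit of primase, read -0.74, -0.012 and 0.33. Prim1, the small subunit, and Pold1 and Pold2, of polymerase delta, ranged from -0.21 to 0.38.

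The clamp group had the lowest median on replicate 3 among the 6 groups, -0.63, with 7 of 11 genes below 0. Among all genes with a symbol measured on that array, 8671 of 16768 were below 0. On replicates 1 and 2 the medians of the clamp group were -0.094 and 0.23. Pcna, the clamp itself, read 0.15 and 0.60 in pair 1 and -1.32 in pair 2. Rfc3, a clamp loader subunit, read 0.38 and 0.48 in pair 1 and -2.01 in pair 2, the lowest value of the 47 genes on any array. Rfc1, the large loader subunit, read -0.64, 0.40 and -0.63, and Rfc2 read -0.25, 1.05 and -0.58. Rfc4 was above 0 on each array, at 0.39, 0.20 and 0.12, and Rfc5 read -0.094, 0.20 and 0.49. The probes of Rfc4 read -0.36 and 0.61 on replicate 3, and those of Rfc5 0.78 and -0.37 on replicate 2. By the mean of their probes, the loader genes were thus all above 0 on replicate 2 and on both sides of 0 on replicates 1 and 3.

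The RPA genes did not share a direction either. Rpa1, the large subunit, read -0.80, 0.29 and -1.08, with a mean of -0.66 ± 0.36 (moderated SE over n = 2 pairs, adjusted p in limma = 0.852). Rpa3 read -0.16, 0.23 and -0.64, and Rpa2 0.19, -0.51 and 0.44. In each of the 3 genes replicate 2 lay on the other side of 0 from replicates 1 and 3. Lig1, the ligase that joins lagging-strand fragments, was below 0 on each array, at -0.20, -0.15 and -0.63. On replicate 2 that mean rests on 1 of its 3 probes, at -1.09, while the others read 0.080 and 0.56. Fen1, the nuclease that trims the ends of those fragments, read 0.82, -0.21 and 0.72. Its mean was 0.51 ± 0.26 (moderated SE over n = 2 pairs, adjusted p in limma = 0.852).

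Ribonucleotide reductase, which makes deoxynucleotides, has a large subunit, Rrm1, and a small one, Rrm2, and these lay on opposite sides of 0 on each array. Rrm1 read -0.11, -0.38 and -0.65 and Rrm2 0.76, 0.40 and 0.13. Their means were -0.45 ± 0.26 and 0.36 ± 0.27 (moderated SE over n = 2 pairs, adjusted p in limma = 0.852 for both). Of the 4 probes of Rrm2, 1 read 1.73 on replicate 1 and was at the most frequent value on the other arrays. On replicate 3 the remaining probes read 0.79, -0.345 and 0.077, so that 1 of them lay on the side of Rrm1. Tyms, thymidylate synthase, read -0.16, 0.33 and -0.80. Tk1, thymidine kinase, read -0.74, -0.044 and 0.19, over probes that ranged from -1.34 to 1.72 on replicate 3.

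The chromatin genes were below 0 in pair 2. Chaf1a, the large subunit of the histone chaperone CAF-1, read -0.29, 1.35 and -1.36. Chaf1b, another subunit, read 0.18, 0.090 and -0.60. Uhrf1, which binds hemimethylated DNA behind the fork, read 0.070, -0.25 and -0.41. All 3 were thus below 0 on replicate 3, while pair 1 held both signs. For Uhrf1 this holds for the mean of 2 probes, which read 0.255 and -1.08 on replicate 3.

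When 1 array differed in sign from the others it was most often replicate 2, the array with exchanged dyes. Replicate 2 lay on the other side of 0 from replicates 1 and 3 in 19 of 45 genes (42.2%), against 24.9% of all features measured on each array. Mcm4 is among the 19 by the mean of its probes, though 0 of its probes measured on each array had this pattern. Replicate 3 was the odd one in 14 (31.1%, against 30.9%) and replicate 1 in 4 (8.89%, against 16.6%). Counted by probe, replicate 2 was the odd one in 30 of 68 (44.1%, against 25.7%), replicate 3 in 15 (22.1%, against 30.4%) and replicate 1 in 11 (16.2%, against 16.4%), and 12 had 1 sign (17.6%, against 27.5%). By group, replicate 2 was the odd one in 5 of 8 polymerase and primase genes, 6 of 11 clamp genes, 3 of 7 MCM genes, 1 of 3 chromatin genes, 3 of 12 measured origin genes and 1 of 4 nucleotide genes. Of the genes past 1.5-fold, 6 of 47 were so in the same direction on replicates 1 and 3 (12.8%, against 9.5%): Orc1, Orc2, Gins2, Rfc1, Rpa1 and Fen1. On replicates 2 and 3 there were 0 of 47, against 7.68%. These shares were set side by side without a test.

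**Figure D2:**
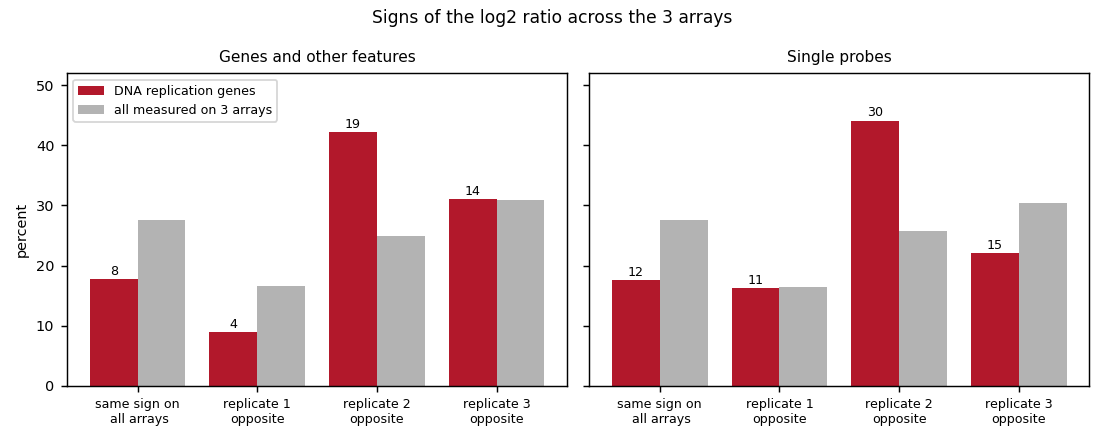
Percent of DNA replication genes (left panel, red) and of their probes (right panel, red), beside all features or probes measured on the 3 arrays (grey), by which array had the odd sign. Counts stand on the red bars. Replicate 2, the array with exchanged dyes, was the odd one in 19 of 45 genes and 30 of 68 probes.

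Genes are not independent replicates. Across the 47 genes, Pearson's r between replicates 1 and 2 was -0.26 (Spearman's rho -0.13), although both arrays held the same RNAs. Over all features it was 0.24. Between replicates 1 and 3, which shared the dye orientation but no RNA sample, r was 0.39 (rho 0.35) in the replication genes and -0.009 over all features. Between replicates 2 and 3, which shared neither, r was -0.54 (rho -0.46) in the replication genes and -0.094 over all features. The difference of replicates 1 and 2, divided by 2, holds any part of the ratio that turned with the dyes together with the errors of both arrays, which were not told apart. It was larger in size than the mean of both arrays in 23 of 45 measured genes (51.1%), against 41.5% of features. It correlated with replicate 3 at r = 0.59 (rho 0.49), and the mean of pair 1 correlated with replicate 3 at r = -0.11 (rho -0.10). Over all features these r were 0.071 and -0.066. They were 0.54 and -0.43 in the other replication genes listed separately and 0.68 and -0.44 in the apical progenitor markers. Over the 10 other lists the first ran from -0.39 to 0.68 and the second from -0.44 to 0.38. Pair 2 has 1 array, so that dye and genotype cannot be told apart in it.

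**Figure D3:**
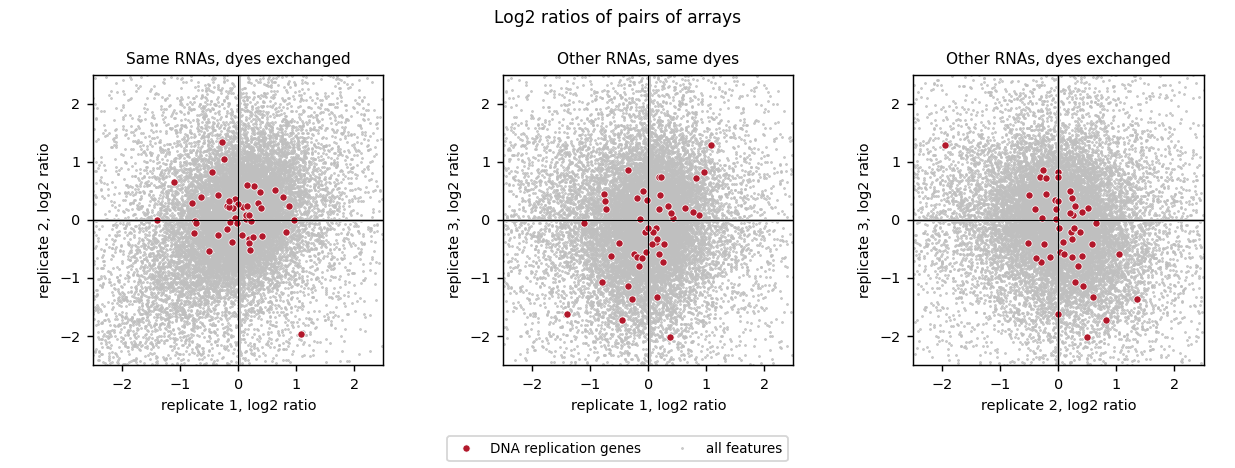
Log2 ratios of each pair of arrays (axes, log2 ratio on the named replicate), for DNA replication genes (red) over all features (grey, cropped at 2.5). Pearson's r of the red points is -0.26 for replicates 1 and 2, 0.39 for replicates 1 and 3 and -0.54 for replicates 2 and 3.

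Probes of 1 gene often went apart. Of the 18 genes with several probes, 14 had probes on both sides of 0 on at least 1 array, 7 on replicate 1, 9 on replicate 2 and 7 on replicate 3. The share over all genes with several probes was not computed. These counts therefore do not set the replication genes apart from other genes. The median range between probes of a gene was 0.55, 0.84 and 0.94 on replicates 1 to 3. The SD between the 47 genes was 0.52, 0.50 and 0.73 on those arrays. The probes of Mcm6 and those of Orc5 went apart on each array. Of the Orc5 probes, 1 read -0.56, 0.48 and -0.65 and the other 0.27, -0.55 and 0.66. Each thus turned sign on replicate 2 in the opposite sense, and the mean of Orc5 was -0.040. The probes of Cdc45 read -0.24, 1.11 and 0.21 against 0.21, -1.23 and 0.47. The probes of Orc4, in contrast, read -0.30, 0.018 and -1.81 and -0.59, 1.62 and -1.63, close together on replicates 1 and 3. Probes at an array's most frequent value were few: 5 of the 73 probes (6.85%) were at it on any array, against 33.5% of all 38880.

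**Figure D4:**
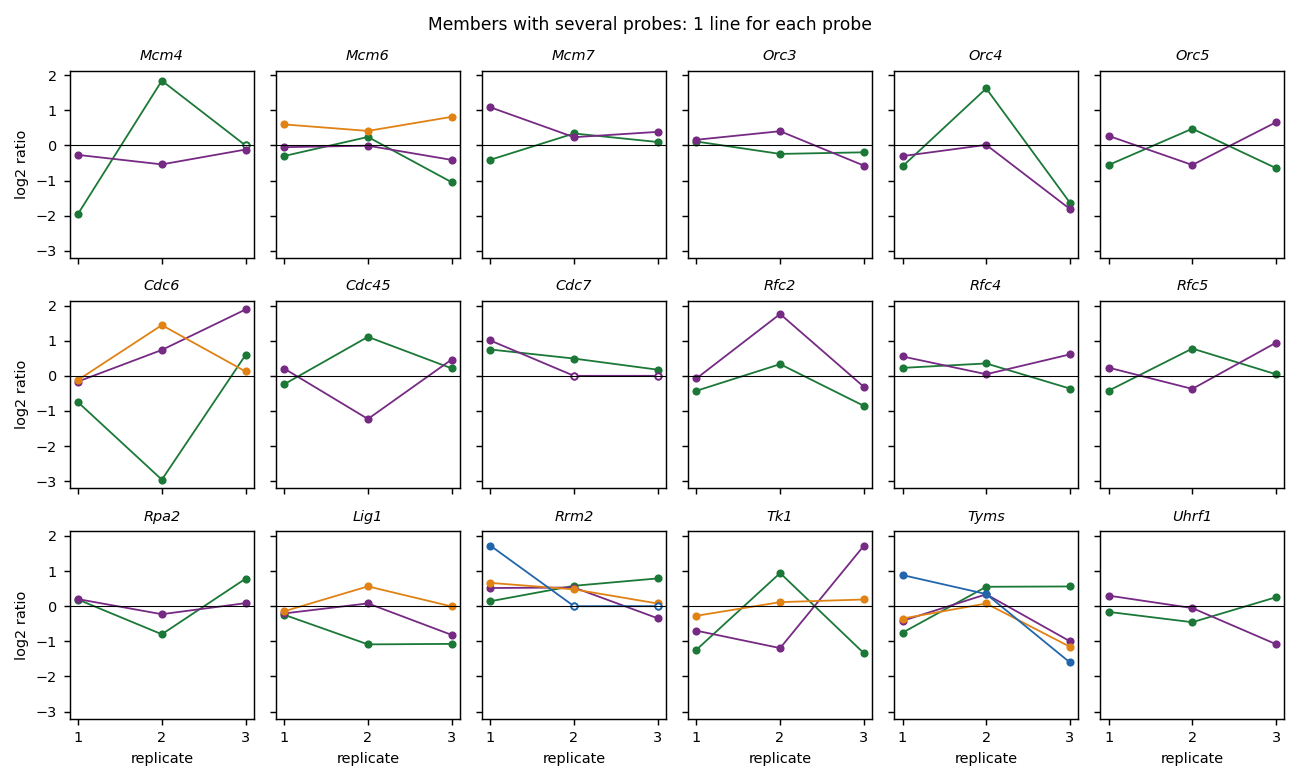
Log2 ratio (vertical axis) on replicates 1 to 3 (horizontal axis) of each probe of the 18 replication genes with several probes, 1 line for each probe, with open points at an array's most frequent value. The probes of Orc5 mirror each other across 0, while those of Rpa2 and those of Orc4 share their sign on each array.

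Other genes of replication and of the entry into S phase, listed separately, had medians near 0 too. Of 38 further replication genes 37 were measured, with medians of 0.17, 0.080 and -0.23, and 0 passed the test. Replicate 2 was the odd one in 36.4% of the 33 measured on each array (against 24.9% of all features). Of the 33, 3 were higher and 2 lower on all arrays, where 12.9% and 14.7% of all features were. Dnmt1, the maintenance DNA methyltransferase that follows the fork with Uhrf1, read 0.97, 0.21 and 0.75. Pold4, a small subunit of polymerase delta, read -0.82, -0.52 and -0.61. The 23 G1/S control genes had medians of -0.006, 0.25 and -0.13, and 0 passed. Among them E2f8, a repressor of replication genes, was above 0 on each array, at 0.67, 2.79 and 1.21, with a mean of 1.47 ± 0.28 (moderated SE over n = 2 pairs, adjusted p in limma = 0.852). Cdc25a, a phosphatase that activates cyclin-dependent kinases, was below 0 on each, at -0.57, -1.25 and -0.97. Lin9, of the MuvB complex, read 0.44, 0.99 and 0.88.

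Markers of the cell types that carry these transcripts, and of other tissues, lay away from 0 in pair 1 in several lists. The 15 apical progenitor markers, of the dividing cells of the ventricular zone, had medians of 0.28, 0.32 and -0.13, and 8, 9 and 7 of them were above 0 on replicates 1 to 3. The 14 intermediate progenitor markers had medians of 1.40, 1.33 and -0.023, with 12 above 0 on replicate 1, 13 on replicate 2 and 7 on replicate 3. The 16 measured young neuron markers had medians of 0.15, 0.34 and 0.079, but spread widely to both sides of 0 in pair 1. They ran from -1.888 to 4.525 on replicate 1, with 11 above 0 and 5 below. On replicate 2 they ran from -0.805 to 4.235, with 9 above 0 and 7 below. Pearson's r between those arrays was 0.94 in this list. For cartilage, bone, muscle and skin, 29 measured markers had medians of -4.64, -4.46 and 0.66, with 26 below 0 on replicate 1 and 25 of the 27 with a measurement on replicate 2. The 16 meningeal and fibroblast markers had medians of -3.00, -3.15 and 0.52. Endothelial, red cell and microglial lists had medians from -1.46 to -0.89 in pair 1 and from 0.19 to 0.31 in pair 2. Of these 8 lists 0 genes passed the test. The part that these tissues play in the replication genes' ratios was not tested. The replication genes' own medians in pair 1 were -0.010 and 0.090 beside those lists. The lists with medians far below 0 lay there on both dye orientations of pair 1. Ratios give no level, so the presence of cortex markers could not be checked. The medians of -4.64 and -4.46 do show that the RNAs of pair 1 differed in cartilage, bone, muscle and skin transcripts. Whether those RNAs differed in tissue content was not tested.

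**Figure D5:**
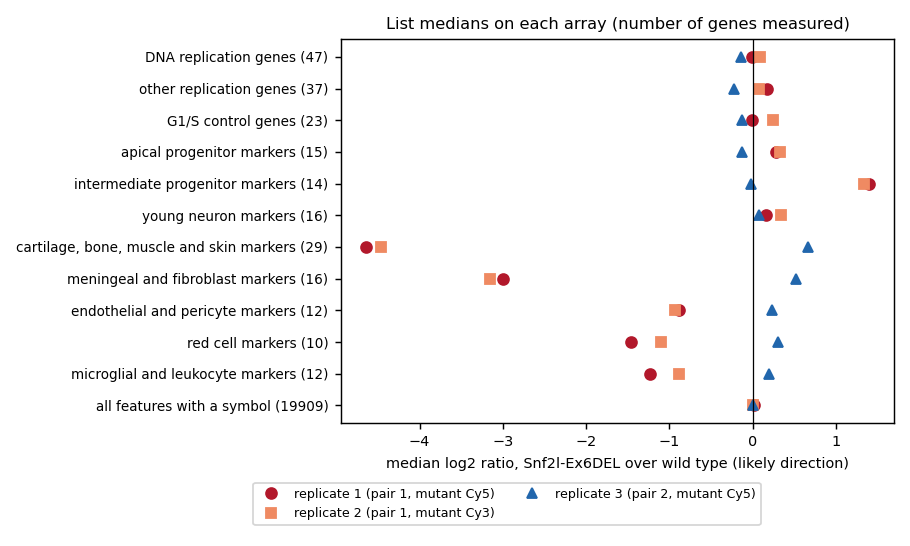
Median log2 ratio (horizontal axis, likely mutant over wild type) of the DNA replication genes, of 10 other gene lists and of all genes with a symbol, on each array (symbols as in the legend), with the number of genes measured in brackets. The replication genes lie near 0 on all 3 arrays, while markers of cartilage, bone, muscle and skin lie at -4.64 and -4.46 in pair 1 and at 0.66 in pair 2.

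The targeted gene Smarca1 had 1 probe, at -0.017, 0.36 and 3.11, and the sources used here do not place that probe relative to exon 6. It therefore checks neither the labels nor the deletion. Array medians were 0.009, 0 and 0.001 and the SDs 1.253, 1.315 and 1.263 over 38880 probes. The most frequent value of each array was its median and was held by 11.7%, 16.6% and 21.9% of probes. The number of arrays limits the precision of every value here.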

How the data were processed

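Two-colour arrays of mutant and wild-type cortex RNA were analysed from the series matrix. The values are taken as log2 ratios made by the authors, deposited with medians near 0. Scale and centring were read from the values, and the sources used here do not give the numerator, background correction, normalization or spot filter. The platform annotation gave 30457 of 38880 probes a symbol. Symbols were updated through RefSeq names (GRCm38.p6), by which 12 of the 47 genes were found. Probes of a symbol were averaged, giving 28332 features. Replicates 1 and 2 were averaged to 1 pair and tested with replicate 3 by limma 3.58.1 in R 4.3.3 (lmFit, eBayes, Benjamini-Hochberg over all features, threshold 0.05, total degrees of freedom 2.08). The moderated SE after ± draws each feature's spread towards a common value. P-values measure the spread between these pairs, which may be technical. In counts of signs, a spot at its array's most frequent value was read as no measurement and given no sign. A gene was given no sign where all its probes were at that value. Such spots kept their values in the probe averages, fit, medians, correlations and 1.5-fold counts, except where stated. The fit was tested on simulated data, with a pass criterion only at a spread far below that of these data. That test thus does not show which changes the fit could find at the spread seen here.

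The genes, lists and call rules were chosen with earlier results of these data known. Values were given, by rule, for genes of 1 sign on all arrays, past 1.5-fold on replicate 3 or on both arrays of pair 1, or with probes that differ in sign. From each other list up to 4 genes of 1 sign were eligible. Pole, Prim2, Rfc2, Rpa2, Gmnn and Cdt1 were chosen after their values were seen. Alternatives covered probe summary, most frequent values, centring, scaling, fold threshold, each array left out, a dye term, robust eBayes, independent arrays and a block for the pair. Promoter windows came from RefSeq.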

Additional observations from a re-analysis of the deposited data

How the results depend on the processing

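The count of 0 features and of 0 replication genes at an adjusted p of 0.05 was unchanged under each alternative that gave a test. With replicate 3 left out 1 pair remains and no test was made. At an unadjusted p of 0.05 the replication genes numbered 4 without replicate 2 (Orc1, Orc2, Gins2 and Rpa1, against 3.78% of all features) and at most 1 otherwise. Of the 47 means, 21 changed sign without replicate 3, 12 without replicate 1 and 1 without replicate 2, 13 under a fit with a dye term, 7 with independent arrays, 4 each with the other centring and the block, 1 with equal spread and 0 under the other alternatives. The count of 808 features past 1.5-fold on all arrays was 1218 when probes were not averaged, 272 at 2-fold, 1781 at the laxer of both other thresholds, and between 2175 and 4169 on 2 of the 3 arrays, a weaker demand. The count of 0 replication genes became 1 at that laxer threshold (Pole2) and 0 to 6 with 1 array left out, the 6 without replicate 2. The 8 genes of 1 sign became 12 to 29 with 1 array left out, 12 without replicate 1, 29 without replicate 2 and 22 without replicate 3. The count of 19 with replicate 2 opposite, an alternative set added after seeing the data, ranged from 19 to 24. The median over the pairs ran from -0.12 to 0.054 with 1 array left out. On replicate 2 it was 0.23 with every probe as a feature. Each ratio is itself a difference between 1 mutant and 1 wild-type RNA, so that the fit is paired without a replicate block, and none was added. The random block for the pair could not be estimated from 3 arrays and was replaced, after seeing the data, by a set correlation of 0.245. Spot brightness was not used here, so dim spots could not be set apart.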
